A study of Homo sapiens with 11 samples.

Results

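The MYC and MAX network was examined as 10 genes chosen by symbol, namely MYC, MYCN, MAX, MXD1, MXD3, MXD4, MXI1, MNT, MLX and MGA, out of 38557 genes in the joined table of counts. All 10 were found in the table, and 9 of them had enough counts to be tested. The rule used symbols and no measured value, but the genes were picked with earlier results of these data known. MYCN had 0 counts in all 11 libraries and was the member not tested.

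MYC is a transcription factor that binds DNA only when paired with MAX. The MYC and MAX pair activates genes for ribosome assembly, nucleotide synthesis, glycolysis and cell division. MXD1, MXD3, MXD4 and MXI1, as well as MNT and MGA, also pair with MAX and compete with MYC for it and for the same DNA sites, where they recruit corepressors. MXD1 is known to rise, and MYC to fall, when myeloid progenitors mature. MLX belongs to a parallel arm of the network, in which it pairs with the glucose-sensing factors MLXIP and MLXIPL and with some MXD proteins.

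Fragments of polyA RNA were counted per gene in MOLM-13, an acute myeloid leukemia (AML) cell line with a rearranged KMT2A gene. All cells were held for 72 h in DMSO as solvent control (4 libraries), in 1 µM MI-503, which blocks the interaction of Menin with KMT2A (4 libraries), or in 1 µM MI-503 plus 100 nM PR-957 (ONX-0914), an inhibitor of the immunoproteasome subunit PSMB8 (3 libraries, replicates 1, 2 and 4). The last group is termed the combination. PR-957 alone was not analysed here, so its addition can be read only on top of MI-503, and all groups come from 1 cell line. The labels do not say whether replicates were separate cultures, so p-values measure only the spread between these libraries.

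Totals ran from 18.9 to 41.2 M counted fragments, and 14683 genes were tested. The AML and myeloid identity genes SPI1, FLT3, PTPRC, CD33 and MPO were expressed in every group, whereas CD34 and ANPEP had group means under 1 CPM, the counts of a gene scaled to the library total. Combination replicate 1 stood apart, with 35 of 10041 genes differing by over 2-fold from the average of the other combination libraries, where 0 to 12 genes did so in any other library. Across the members its level was 0.819 times (MNT) to 1.11 times (MAX) the mean of the other 2 combination libraries. Levels below are CPM after TMM scaling, as mean ± SD, and differences are log2 fold changes with their standard error (SE) and the adjusted p of edgeR's quasi-likelihood test. A gene was called higher or lower at an adjusted p under 0.05.

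With MI-503, MYC fell while MXD1, MXD3 and MXI1 rose. With the combination, MYC was lower still, MXD1 higher still, and MXD4 was raised, whereas MXD3 and MXI1 lay below their MI-503 levels. MAX showed no called difference. In MI-503 against DMSO, 3 of the 9 tested members were called higher and 2 lower (MYC and MLX), where 22% of all tested genes were called higher and 29.3% lower. In the combination against DMSO, 3 members were higher and 3 lower, where 31.7% of all genes were higher and 32.8% lower. In the combination against MI-503, 2 members were higher and 4 lower, where 23.6% of all genes were higher and 23.8% lower. The members' median log2 fold changes in these 3 comparisons were -0.04, -0.04 and -0.07, beside medians over all tested genes of -0.03, 0.01 and 0.00. With 9 tested genes, these counts beside such a background describe the single genes and not the network as a whole, whose members moved in opposite directions. Both comparisons with DMSO share the same control libraries, and both comparisons of the combination share its libraries.

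To follow the activating arm, MYC was read first. It measured 660, 642, 666 and 659 CPM in DMSO replicates 1 to 4. In MI-503 replicates 1 to 4 it measured 469, 488, 528 and 495 CPM, and in combination replicates 1, 2 and 4 it measured 368, 361 and 387 CPM. All DMSO libraries lay above all MI-503 libraries, and these above all combination libraries, with no overlap. The mean fell from 657 ± 10.3 CPM (n = 4) to 495 ± 24.4 CPM (n = 4) with MI-503 and 372 ± 13.7 CPM (n = 3) with the combination. MYC was 1.33-fold lower with MI-503 than in DMSO (log2 fold change -0.41, SE 0.04, edgeR adjusted p = 5.71e-07). It was 1.77-fold lower with the combination than in DMSO (log2 fold change -0.82, SE 0.05, edgeR adjusted p = 1.54e-10). Between the combination and MI-503 the difference was 1.33-fold (log2 fold change -0.41, SE 0.05, edgeR adjusted p = 1.88e-06). In bulk RNA, fewer cells expressing a gene and less RNA per cell cannot be told apart.

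The lowest MYC count of any library was 7195 fragments. MYC lies on chromosome 8. Of 5 noncoding or retrogene neighbors listed for it, only PVT1, a long noncoding RNA next to MYC, had enough counts to be tested. PVT1 measured 19.7 CPM in DMSO, 18.2 CPM with MI-503 and 20.2 CPM with the combination. None of its differences was called, with log2 fold changes of -0.11 (SE 0.07, edgeR adjusted p = 0.179), 0.03 (SE 0.07, edgeR adjusted p = 0.724) and 0.15 (SE 0.07, edgeR adjusted p = 0.112) in the 3 comparisons.

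MYCN, the paralog best known from neuroblastoma, was not detected. A count of 0 allows up to 0.0729 to 0.159 CPM at the depth of these libraries (3 counts per library, counting error only). MYCL, the third MYC paralog and not among the 10 members, was low. It measured 7.36, 7.58, 7.87 and 6.45 CPM in DMSO, 9.44, 9.07, 8.67 and 7.45 CPM with MI-503, and 7.46, 8.13 and 8.00 CPM with the combination. The groups overlapped in every comparison. MYCL was called higher with MI-503 than in DMSO (log2 fold change 0.24, SE 0.09, edgeR adjusted p = 0.0413), a call that was lost when any 1 of DMSO replicates 1 or 4 or MI-503 replicates 1, 2 or 3 was left out, with adjusted p from 0.0669 to 0.131. Its difference between the combination and DMSO was 0.10 (95% interval -0.12 to 0.31, edgeR adjusted p = 0.420).

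**Figure D1:**
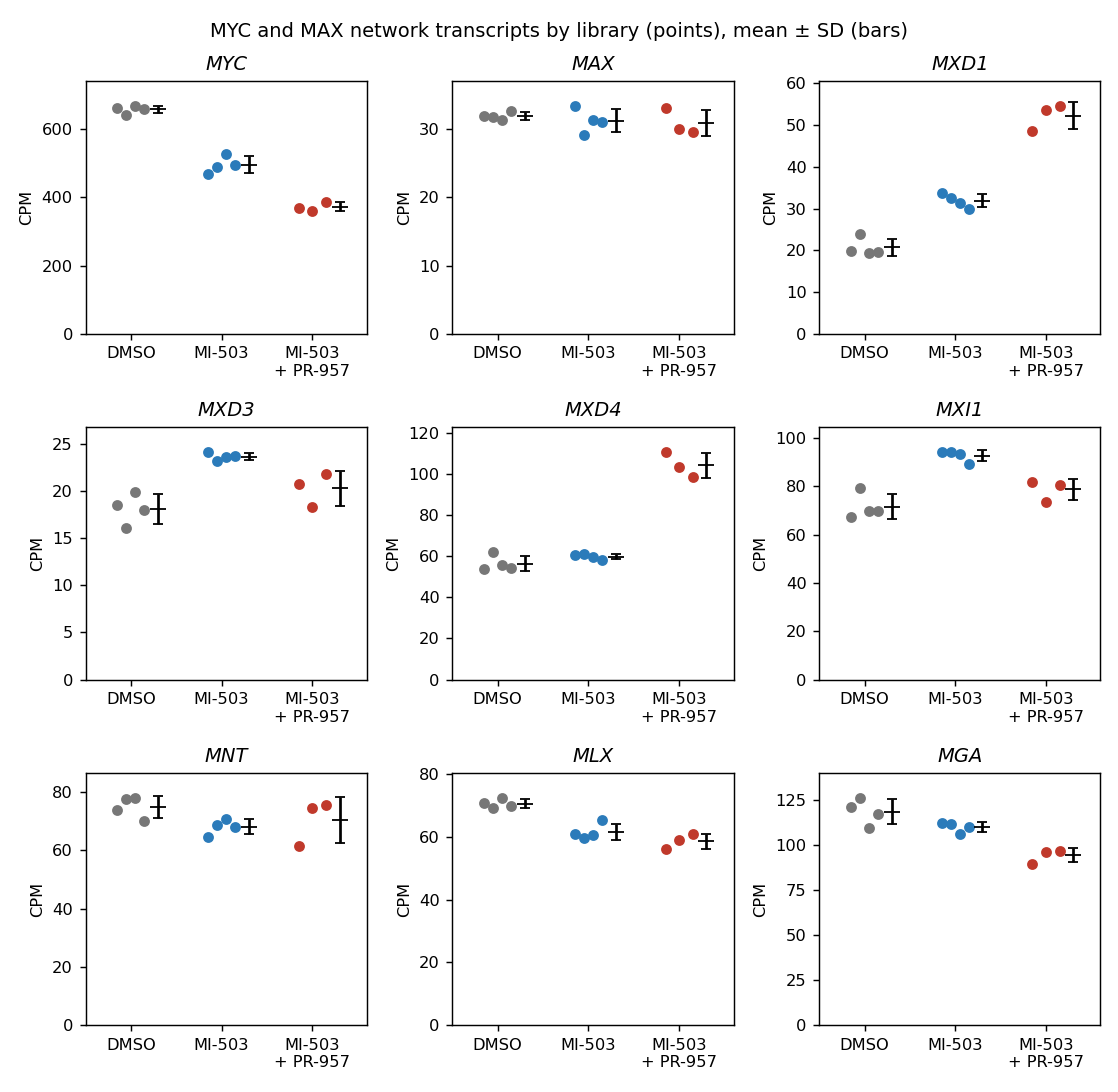
TMM-scaled CPM of the 9 tested members in each library (points, with replicates in ascending order from left to right) for the DMSO, MI-503 and MI-503 + PR-957 groups, with the mean and SD of each group as black bars; each panel has its own axis from 0. MYC steps down and MXD1 steps up over the 3 groups with no overlap, each combination library lies above all others for MXD4 (98.6 CPM and more), and MAX stays between 29.2 and 33.4 CPM.

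MAX, which can pair with the other members except MLX, was measured at 32.0, 31.8, 31.3 and 32.7 CPM in DMSO. It was measured at 33.4, 29.2, 31.4 and 31.1 CPM with MI-503, and at 33.1, 30.1 and 29.6 CPM with the combination. The groups overlapped throughout. The log2 fold change was -0.04 for MI-503 against DMSO (95% interval -0.15 to 0.08, edgeR adjusted p = 0.619). For the combination it was -0.04 against DMSO (95% interval -0.17 to 0.08, edgeR adjusted p = 0.539) and -0.01 against MI-503 (95% interval -0.13 to 0.12, edgeR adjusted p = 0.930). The sign of these differences changed between processing alternatives. MAX spans chr14:65006101-65102695 on the minus strand of hg38.

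Among the MXD repressors, MXD1 showed the largest log2 fold change of any member in each comparison with DMSO. MXD1, known as an early marker of myeloid maturation, spans chr2:69915041-69942945 on the plus strand. It measured 19.9, 23.8, 19.4 and 19.6 CPM in DMSO, 33.7, 32.6, 31.3 and 30.0 CPM with MI-503, and 48.5, 53.7 and 54.5 CPM with the combination. The 3 groups did not overlap, and DMSO replicate 2 was the highest of its group. MXD1 was 1.54-fold higher with MI-503 than in DMSO (log2 fold change 0.63, SE 0.07, edgeR adjusted p = 1.11e-06). It was 2.52-fold higher with the combination than in DMSO (log2 fold change 1.33, SE 0.07, edgeR adjusted p = 7.00e-11) and 1.63-fold higher than with MI-503 (log2 fold change 0.71, SE 0.07, edgeR adjusted p = 3.66e-07). The directions and calls of MYC and MXD1 held in all 3 comparisons under each of the 19 processing alternatives tried.

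MXD4 followed another course. This repressor, encoded at chr4:2247432-2262109 on the minus strand, measured 53.6, 62.0, 55.7 and 54.4 CPM in DMSO and 60.6, 61.2, 59.5 and 58.1 CPM with MI-503. With the combination it measured 111, 103 and 98.6 CPM. DMSO and MI-503 libraries overlapped, while each combination library lay above all of both. The difference between MI-503 and DMSO was not called (log2 fold change 0.09, 95% interval -0.02 to 0.20, edgeR adjusted p = 0.181). It was called higher under 6 of the 19 alternatives, and adjusted p over all 19 ran from 0.0153 to 0.405. These 6 were upper-quartile factors, a stricter filter, only the 2 groups compared, and leaving out DMSO replicate 2 or combination replicate 1 or 4. MXD4 was 1.85-fold higher with the combination than in DMSO (log2 fold change 0.89, SE 0.05, edgeR adjusted p = 3.36e-10). It was 1.74-fold higher with the combination than with MI-503 (log2 fold change 0.80, SE 0.05, edgeR adjusted p = 4.79e-09).

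MXD3 and MXI1 were both highest with MI-503 alone. MXI1, also known as MXD2 and located at chr10:110207605-110287365 on the plus strand, measured 67.4, 79.4, 69.8 and 69.7 CPM in DMSO. It measured 93.9, 94.1, 93.4 and 89.0 CPM with MI-503 and 81.8, 73.7 and 80.6 CPM with the combination. All MI-503 libraries lay above all others, while combination and DMSO libraries overlapped through DMSO replicate 2. MXI1 was higher with MI-503 than in DMSO (log2 fold change 0.37, SE 0.05, edgeR adjusted p = 1.43e-05). It was lower with the combination than with MI-503 (log2 fold change -0.23, SE 0.06, edgeR adjusted p = 0.00241). The combination was called higher than DMSO (log2 fold change 0.14, SE 0.06, edgeR adjusted p = 0.0374), but this call was lost under 7 of the 19 alternatives, among them leaving out DMSO replicate 1, 3 or 4 or combination replicate 1 or 4, and adjusted p over all 19 ran from 0.00320 to 0.115.

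MXD3, which is known for expression in dividing cells, is encoded at chr5:177305499-177311898 on the minus strand. It measured 18.5, 16.0, 19.9 and 18.0 CPM in DMSO, 24.1, 23.2, 23.6 and 23.7 CPM with MI-503, and 20.7, 18.3 and 21.8 CPM with the combination. Again the MI-503 libraries lay above all others. MXD3 was higher with MI-503 than in DMSO (log2 fold change 0.39, SE 0.07, edgeR adjusted p = 2.04e-04) and lower with the combination than with MI-503 (log2 fold change -0.22, SE 0.07, edgeR adjusted p = 0.0235). The latter call was lost without MI-503 replicate 1 or combination replicate 2 (adjusted p up to 0.0536). Between the combination and DMSO the difference of 0.17 was not called (95% interval 0.01 to 0.33, edgeR adjusted p = 0.0599). It was called under 8 of the 19 alternatives, with adjusted p over all 19 from 0.00995 to 0.212. Among these 8 were upper-quartile factors, a stricter filter, limma-voom and leaving out DMSO replicate 3 or combination replicate 2. Exons of MXD3 share 26.1% of their bases with PRELID1, and fragments overlapping both genes were left out of the counts.

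MNT, the MAX-bound repressor expressed in most cells, measured 73.7, 77.5, 78.0 and 70.0 CPM in DMSO and 64.6, 68.7, 70.9 and 68.0 CPM with MI-503. With the combination it measured 61.5, 74.5 and 75.6 CPM, with replicate 1 below the others. All groups overlapped, and no comparison was called. The log2 fold change was -0.14 for MI-503 against DMSO (95% interval -0.26 to -0.01, edgeR adjusted p = 0.0712), and the difference was called lower without DMSO replicate 4 (over the 19 alternatives adjusted p ran from 0.0386 to 0.312). For the combination it was -0.09 against DMSO (95% interval -0.23 to 0.05, edgeR adjusted p = 0.237) and 0.05 against MI-503 (95% interval -0.09 to 0.18, edgeR adjusted p = 0.598). Without combination replicate 1 the difference from DMSO became 0.02.

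MGA, a large protein that carries a second DNA-binding domain and assembles the variant Polycomb complex PRC1.6, spans chr15:41621225-41769943 on the plus strand. It measured 121, 126, 109 and 117 CPM in DMSO, 112, 112, 106 and 110 CPM with MI-503, and 89.7, 96.1 and 96.8 CPM with the combination. Each combination library lay below all others, whereas DMSO and MI-503 overlapped. MGA was lower with the combination than in DMSO (log2 fold change -0.33, SE 0.05, edgeR adjusted p = 1.85e-05) and than with MI-503 (log2 fold change -0.23, SE 0.05, edgeR adjusted p = 0.00145). Between MI-503 and DMSO the difference of -0.11 was not called (95% interval -0.21 to -0.01, edgeR adjusted p = 0.0637), though it was called without DMSO replicate 3 (over the 19 alternatives adjusted p ran from 0.0149 to 0.441).

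In the MLX arm, MLX measured 70.6, 69.1, 72.3 and 69.6 CPM in DMSO, 60.7, 59.7, 60.5 and 65.3 CPM with MI-503, and 56.0, 58.8 and 60.7 CPM with the combination. All treated libraries lay below all DMSO libraries, and both treated groups overlapped. MLX was lower with MI-503 (log2 fold change -0.19, SE 0.04, edgeR adjusted p = 0.00119) and with the combination (log2 fold change -0.27, SE 0.05, edgeR adjusted p = 8.04e-05) than in DMSO. The combination differed from MI-503 by -0.07 (95% interval -0.17 to 0.02, edgeR adjusted p = 0.206), and was called lower only without combination replicate 4 (edgeR adjusted p = 0.0342, the lowest of the 19 alternatives, where the highest was 0.489). MLX shares 30.2% of its exon bases with PSMC3IP, and such fragments were not counted for either gene.

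MLXIP, the glucose-sensing partner of MLX and not itself a member, moved the other way. It measured 29.6, 32.5, 34.3 and 30.1 CPM in DMSO, 40.3, 37.0, 38.0 and 38.7 CPM with MI-503, and 44.3, 49.6 and 46.7 CPM with the combination. The 3 groups did not overlap. Its log2 fold changes were 0.28 (SE 0.06, edgeR adjusted p = 5.11e-04) for MI-503 against DMSO, 0.56 (SE 0.06, edgeR adjusted p = 3.04e-07) for the combination against DMSO and 0.28 (SE 0.06, edgeR adjusted p = 8.90e-04) for the combination against MI-503. MLXIPL averaged under 1 CPM in each group and was not tested.

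**Figure D2:**
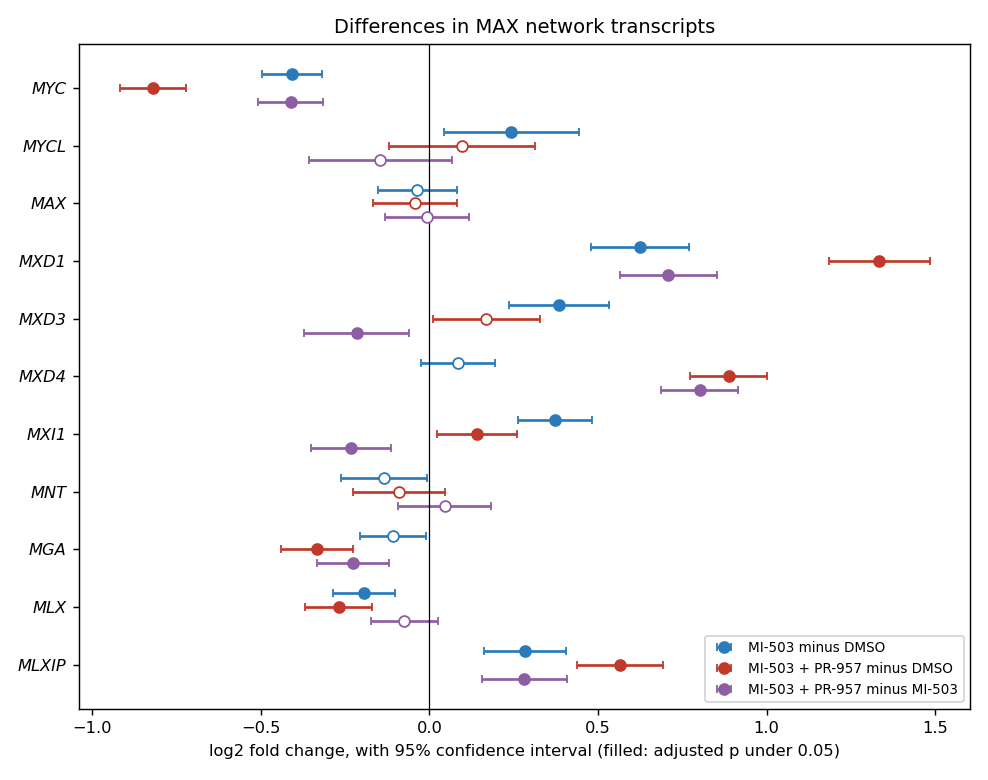
Log2 fold changes (horizontal axis) of the 9 tested members with MYCL and MLXIP in 3 comparisons, with 95% confidence intervals from the edgeR fit; filled points have an adjusted p under 0.05. MYC is on the left in all 3 comparisons and MXD1 on the right, while MXD4 is filled only in both comparisons of the combination and MXD3 and MXI1 change sides between MI-503 minus DMSO and the combination minus MI-503.

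To compare levels between genes, CPM were divided by the merged exon length in kilobases, which is not the length of the transcript in use. This length includes bases shared with other genes, whose fragments were left out of the counts. Levels of MLX (30.2% of bases shared) and MXD3 (26.1%) are therefore lowered on this scale, as is the MXD3 part of the shares and sums below. On this scale MYC led in DMSO with 145 CPM per kilobase, followed by MLX (27.5), MXI1 (18.6) and MXD4 (14.6). MGA (9.38) and MAX (8.78) overlapped, and MNT (8.15), MXD3 (6.54) and MXD1 (3.68) came below. With the combination MYC still led with 82.3 CPM per kilobase, MXD4 was next with 26.9, and MLX (22.8) and MXI1 (20.5) followed. MXD1, at 9.30 CPM per kilobase, had moved from the last of the 9 tested members in DMSO to the fifth, although its libraries overlapped those of MAX (8.50), the next in order.

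The make-up of the transcripts for MAX partners was then described as the share of each gene in the summed CPM per kilobase of MYC, MYCN, MXD1, MXD3, MXD4, MXI1, MNT and MGA. The MYC share was 70.5% ± 1.26 (n = 4) in DMSO, 61.0% ± 1.36 (n = 4) with MI-503 and 51.0% ± 0.678 (n = 3) with the combination. Libraries ran from 68.6% to 71.2%, from 59.5% to 62.6% and from 50.5% to 51.7%, so that the groups did not overlap. The share of MXD4 went from 7.06% over 8.62% to 16.7%, and that of MXD1 from 1.78% over 3.17% to 5.76%. MXI1 held 9.03% in DMSO, 13.4% with MI-503 and 12.7% with the combination.

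The summed CPM per kilobase of MXD1, MXD3, MXD4 and MXI1 was 43.4 ± 2.29 in DMSO, 53.8 ± 1.22 with MI-503 and 64.0 ± 1.98 with the combination. MYC per unit of this sum was 3.36 ± 0.213 in DMSO, 2.04 ± 0.124 with MI-503 and 1.29 ± 0.0529 with the combination. MYC thus remained the most abundant MAX partner transcript of each group, with the MXD genes together approaching its level in the combination. These shares and ratios combine the levels given above and carry no test of their own, and transcript levels do not give the amounts of the short-lived MYC protein or of its partners.

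**Figure D3:**
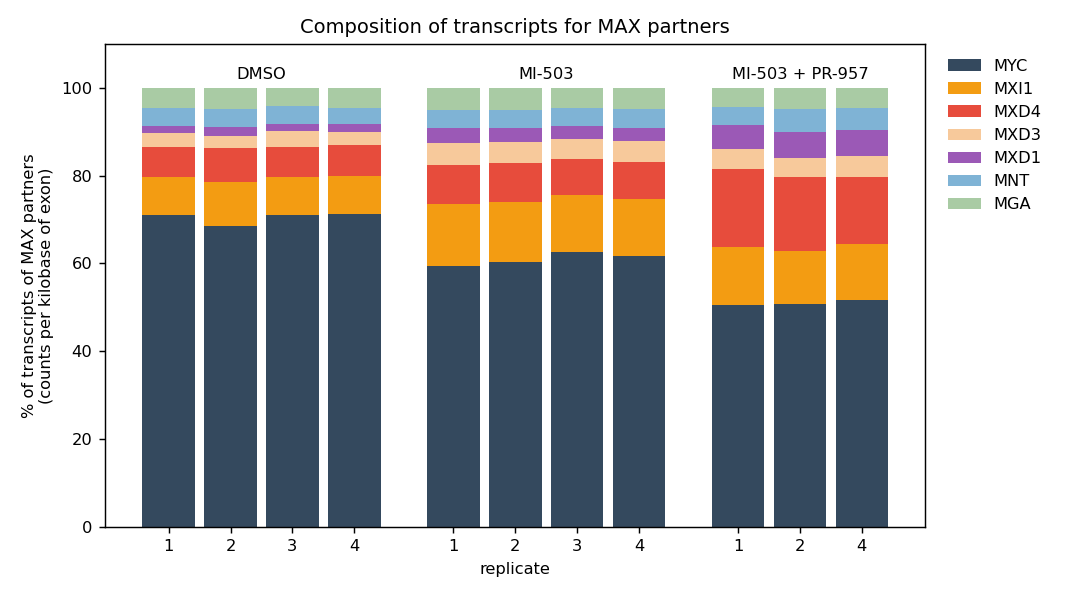
Share of each MAX partner (colors) in the summed CPM per kilobase of exon of these partners, in percent, with 1 bar per library and the replicate number below it. MYCN had no counts and is not drawn, and MYCL was left out of the sum. The MYC share is 68.6% to 71.2% in DMSO, 59.5% to 62.6% with MI-503 and 50.5% to 51.7% with MI-503 + PR-957, and the MXD4 share is largest in the last group.

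The E-box CACGTG, which reads the same on both strands, is the core sequence bound by MAX with its partners. It was searched in the 300 bases around each RefSeq start (250 before and 50 after) of members and related factors, in the RefSeq table of GRCh38.p14. Such a window held the E-box in 7.26% of 35116 cases. This share is per window, and MAX, MXI1 and MGA had several windows each, so a count of genes cannot be set directly against it. The motif was found in windows of 3 genes, MXD4, MNT and MLX, which are shown because these members of the network carry its core sequence next to their own start, with the E-box in capitals. The MXD4 stretch is chr4:2262300-2262359 on the minus strand (motif 238 bases upstream of the RefSeq start). The MNT stretch is chr17:2401221-2401280 on the minus strand (193 bases upstream), and the MLX stretch chr17:42567023-42567059 on the plus strand (50 bases upstream). For MLX the exons used for the counts begin 10 bases after the first base of the motif, where the printed sequence of 37 bases ends.
MXD4: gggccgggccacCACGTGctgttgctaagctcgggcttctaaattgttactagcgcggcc
MNT: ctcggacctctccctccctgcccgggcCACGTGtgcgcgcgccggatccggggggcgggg
MLX: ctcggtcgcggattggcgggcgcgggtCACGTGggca
The windows of MYCN, MXD1, MXD3, MXI1, MAX, MGA, MYCL, MLXIP and MLXIPL did not hold these letters, and MYC had no entry. The MXD3 window (chr5:177312703-177313002) lay wholly upstream of the exons used for the counts, which reach only to position 177311898. The bases next to the counted MXD3 exons were thus not searched. The 3 genes with the motif differed in course, as MXD4 rose with the combination, MLX fell with both treatments and MNT had no call. A match describes the sequence and says nothing of binding in these cells.

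Genes known to be activated by MYC were then read from a list of 30 written from general knowledge. With MI-503, 28 of 30 were called lower and 0 higher than in DMSO, with a median log2 fold change of -0.40. TERT and FBL, the others of the list, were not called. FBL, which the annotation lists on 2 contigs, measured 3.18 CPM in DMSO and 3.83 CPM (2.27 to 7.80 CPM) with MI-503. With the combination, 29 of 30 were lower and 0 higher than in DMSO (median -0.75), and 25 of 30 were lower and 0 higher than with MI-503 (median -0.38). Over all tested genes, 29.3%, 32.8% and 23.8% were lower in these comparisons, with medians of -0.03, 0.01 and 0.00. Over the 19 alternatives, 25 to 29, 29 to 30 and 22 to 27 of the list were lower in the 3 comparisons.

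The lactate dehydrogenase gene LDHA, needed for glycolysis, measured 1015 CPM in DMSO, 501 CPM with MI-503 and 338 CPM with the combination. Its log2 fold changes against DMSO were -1.02 (SE 0.05, edgeR adjusted p = 2.39e-10) with MI-503 and -1.59 (SE 0.06, edgeR adjusted p = 1.99e-12) with the combination. GNL3, a nucleolar protein of proliferating cells, fell with MI-503 (log2 fold change -0.41, SE 0.04, edgeR adjusted p = 9.74e-08) and with the combination (log2 fold change -0.90, SE 0.04, edgeR adjusted p = 1.10e-11). PTMA, which encodes prothymosin alpha, fell by 0.42 on the log2 scale with MI-503 (SE 0.05, edgeR adjusted p = 2.24e-06) and by 1.03 with the combination (SE 0.05, edgeR adjusted p = 5.68e-11). LDHA, GNL3 and PTMA were each lower also with the combination than with MI-503, by 0.57, 0.49 and 0.62 on the log2 scale.

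Of 12 genes known to be repressed by MYC, 9 were tested. With MI-503, 2 were higher (KLF4 and CEBPA) and 2 lower (CDKN1A and CDKN1B) than in DMSO, with a median of 0.15, where 22% of all tested genes were higher and 29.3% lower. With the combination, 6 were higher and 1 lower (CDKN1B) than in DMSO (median 0.31; all genes 31.7% higher and 32.8% lower), and 3 were higher and 1 lower (KLF4) than with MI-503 (median 0.16; all genes 23.6% and 23.8%). The fall of KLF4 between MI-503 and the combination was not called without MI-503 replicate 3 or 4 (adjusted p up to 0.0666). Under the 19 alternatives the higher counts ran from 2 to 5, 4 to 6 and 2 to 5. Without combination replicate 1, 5 were higher with MI-503 than in DMSO. CEBPA and CDKN1B were named here after their values had been seen.

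The stress gene GADD45A measured 10.1 CPM in DMSO, 11.5 CPM with MI-503 and 27.2 CPM with the combination. It was not called with MI-503 (log2 fold change 0.17, edgeR adjusted p = 0.0545, from 0.0118 to 0.163 over the alternatives and called under 10 of 19). With the combination its log2 fold change was 1.42 against DMSO (SE 0.07, edgeR adjusted p = 4.15e-11). The cell cycle inhibitor gene CDKN1A measured 145 CPM in DMSO, 107 CPM with MI-503 and 162 CPM with the combination. CDKN1A was lower with MI-503 than in DMSO (log2 fold change -0.43, SE 0.05, edgeR adjusted p = 3.08e-06) and higher with the combination than with MI-503 (log2 fold change 0.59, SE 0.06, edgeR adjusted p = 2.53e-07). Its rise between DMSO and the combination (0.16, SE 0.06, edgeR adjusted p = 0.0182) was lost without combination replicate 2 or 4 (adjusted p up to 0.106).

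Cofactors of MYC and of its MAX-bound antagonists were tested as 13 genes. With MI-503, 8 were lower and 0 higher than in DMSO (median -0.17). With the combination, 9 were lower and 2 higher than in DMSO (median -0.34), and 6 were lower and 2 higher than with MI-503 (median -0.09). The shares of all tested genes that were lower were 29.3%, 32.8% and 23.8%, and those higher 22%, 31.7% and 23.6%. RUVBL1, an ATPase of chromatin remodelers that bind MYC, measured 124 CPM in DMSO, 81.7 CPM with MI-503 and 77.0 CPM with the combination. Its partner RUVBL2 had log2 fold changes of -0.29 (SE 0.04, edgeR adjusted p = 2.00e-05) with MI-503 and -0.51 (SE 0.05, edgeR adjusted p = 3.59e-08) with the combination against DMSO. The histone deacetylase gene HDAC2 was not called with MI-503 (log2 fold change -0.09, edgeR adjusted p = 0.0690) and fell with the combination against DMSO (log2 fold change -0.53, SE 0.04, edgeR adjusted p = 1.40e-08).

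Both cofactor genes that were higher with the combination were named after their values had been seen. They were SIN3B, a scaffold of the corepressor complex recruited by MXD proteins, and ZBTB17 (MIZ1), a partner of MYC at repressed genes. SIN3B measured 73.7 CPM in DMSO, 76.7 CPM with MI-503 and 103 CPM with the combination, with a log2 fold change of 0.48 between the combination and DMSO (SE 0.05, edgeR adjusted p = 2.22e-07). Its paralog SIN3A was lower by 0.34 on the log2 scale in the same comparison (SE 0.06, edgeR adjusted p = 5.44e-05). ZBTB17 was higher with the combination than in DMSO (log2 fold change 0.36, SE 0.06, edgeR adjusted p = 2.79e-05).

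Of 10 genes that act on MYC protein stability, 6 were lower and 0 higher with MI-503 (median -0.25), and 6 were lower and 0 higher with the combination (median -0.31) than in DMSO. With the combination against MI-503, 4 were lower. Of all tested genes 29.3%, 32.8% and 23.8% were lower in these comparisons. SKP2, a ubiquitin ligase subunit that acts on MYC, measured 108 CPM in DMSO, 89.0 CPM with MI-503 and 61.9 CPM with the combination. AURKA, a kinase that stabilizes MYC family proteins, and CIP2A, an inhibitor of MYC dephosphorylation, were lower with the combination than in DMSO, with log2 fold changes of -0.81 (SE 0.07, edgeR adjusted p = 3.88e-08) and -0.62 (SE 0.07, edgeR adjusted p = 3.69e-07). The list holds genes that stabilize MYC as well as genes that promote its degradation.

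**Figure D4:**
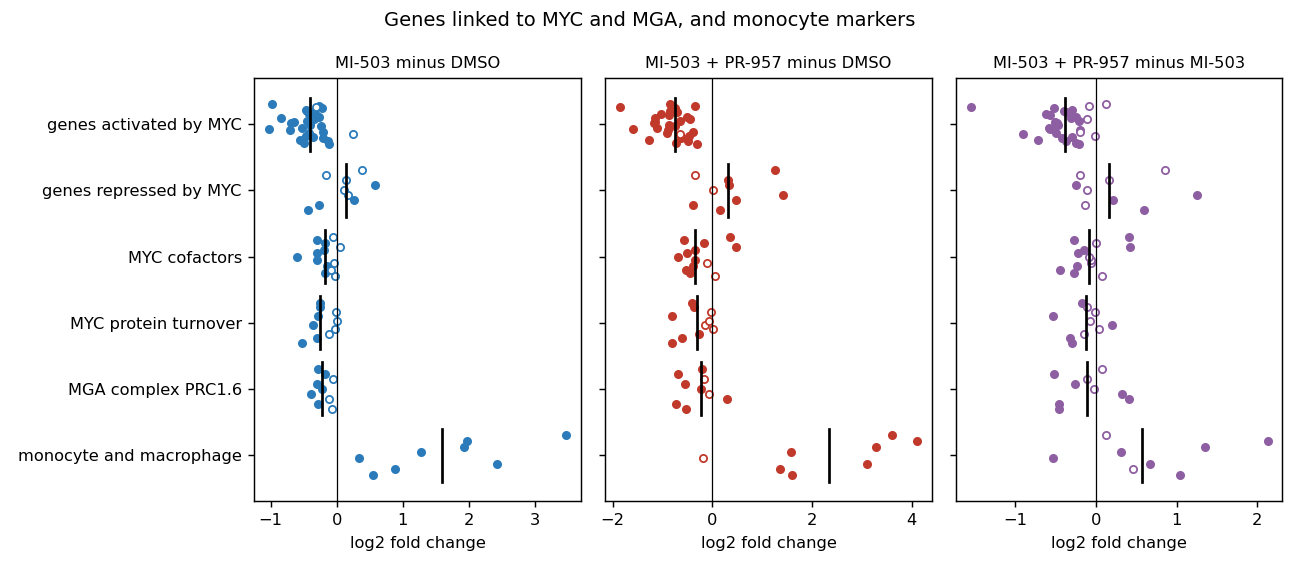
Log2 fold changes of the tested genes (points) of 5 lists tied to MYC and MGA and of a list of monocyte and macrophage markers, with 1 panel per comparison; filled points have an edgeR adjusted p under 0.05 and black lines mark the list medians. The genes activated by MYC lie mostly left of 0 in each panel (medians -0.40, -0.75 and -0.38), and the monocyte markers mostly right of it.

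Around MGA, 9 of 10 listed PRC1.6 subunit genes were tested. RING1, which the annotation lists on 6 contigs, had under 1 CPM and was not. With MI-503, 6 were lower and 0 higher than in DMSO (median -0.21), and with the combination 6 were lower and 1 higher (E2F6; median -0.24). With the combination against MI-503, 4 were lower and 2 higher (E2F6 and L3MBTL2; median -0.11). Against this stand shares of all tested genes of 29.3%, 32.8% and 23.8% lower and 22%, 31.7% and 23.6% higher. TFDP1, which pairs with E2F factors, measured 469 CPM in DMSO, 415 CPM with MI-503 and 291 CPM with the combination. CBX3 and CBX1, which encode heterochromatin proteins, had log2 fold changes of -0.74 (SE 0.05, edgeR adjusted p = 2.34e-09) and -0.53 (SE 0.04, edgeR adjusted p = 8.95e-09) for the combination against DMSO.

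Germline genes are known to be silenced by PRC1.6. Of 11 listed, 6 had too few counts to be tested. STAG3, a cohesin subunit of meiosis, measured 0.314 CPM in DMSO, 1.08 CPM with MI-503 and 1.93 CPM with the combination, and its log2 fold changes against DMSO were 1.78 (SE 0.22, edgeR adjusted p = 4.55e-06) and 2.62 (SE 0.21, edgeR adjusted p = 9.98e-09). MAEL, a piRNA pathway gene, measured 0.808, 1.75 and 1.39 CPM, and SYCP3, a gene of the meiotic chromosome axis, 0.613, 1.12 and 1.10 CPM in the same order. MAEL and SYCP3 were called higher with either treatment than in DMSO, with no call between the treatments, and the group means of all 3 genes were under 2 CPM. Thus 3 of 5 tested genes were higher with MI-503 and 3 of 5 with the combination than in DMSO. STAG3, however, had only 29 counts over the 4 DMSO libraries and passed the count filter through its treated libraries. Its place among the tested genes therefore already favored a rise, and these counts are a description only. Exons of STAG3 also share 27.9% of their bases with CASTOR3 and PVRIG, and such fragments were not counted. Of all tested genes, 22% and 31.7% were higher in these comparisons. The other tested genes of the list, MEIOB (0.685, 0.849 and 0.620 CPM) and TDRKH (2.62, 2.54 and 3.19 CPM in the same order), were not called in any comparison and are named after their values had been seen.

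Of 5 genes known to respond to MLX with its glucose-sensing partners, 4 were tested. With MI-503, 1 was higher and 1 lower than in DMSO (median -0.16). With the combination, 1 was higher and 2 lower than in DMSO (median -0.14), and 1 was higher and 1 lower than with MI-503 (median -0.03). Of all tested genes, 22%, 31.7% and 23.6% were higher and 29.3%, 32.8% and 23.8% lower in these comparisons. ARRDC4, which limits glucose uptake, measured 4.84 CPM in DMSO, 3.41 CPM with MI-503 and 15.9 CPM with the combination. It was lower with MI-503 than in DMSO (log2 fold change -0.50, SE 0.12, edgeR adjusted p = 0.00270) and higher with the combination than with MI-503 (log2 fold change 2.20, SE 0.11, edgeR adjusted p = 1.97e-10). FASN, the fatty acid synthase gene, was higher with MI-503 than in DMSO (log2 fold change 0.21, SE 0.04, edgeR adjusted p = 5.22e-04) and lower with the combination than with MI-503 (log2 fold change -0.53, SE 0.05, edgeR adjusted p = 8.29e-08). ACACA, which encodes acetyl-CoA carboxylase and is listed on 2 contigs, measured 3.65 CPM in DMSO, 3.50 CPM with MI-503 and 2.69 CPM with the combination. ACACA was called lower only for the combination against DMSO (log2 fold change -0.44, SE 0.17, edgeR adjusted p = 0.0302). Leaving out DMSO replicate 1 or 2, or combination replicate 1 or 2, ended this call, and adjusted p then reached 0.115. Upper-quartile factors also ended it (edgeR adjusted p = 0.0636). Against MI-503, ACACA was called lower with the combination without MI-503 replicate 1 (edgeR adjusted p = 0.0354) or combination replicate 4 (edgeR adjusted p = 0.0319). TXNIP, the other tested gene of the list, was not called in any comparison. It measured 131 CPM in DMSO, 110 CPM with MI-503 and 135 CPM (107 to 176 CPM) with the combination. TXNIP was named after its values had been seen. Under some alternatives 2 genes of the list were lower with MI-503 than in DMSO, or 2 higher with the combination than with MI-503.

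Most tested markers of monocytes and macrophages were higher in both treated groups than in DMSO. The summed level of 10 such markers was 215 to 244 CPM in DMSO, 614 to 632 CPM with MI-503 and 903 to 2988 CPM with the combination, with CD14 and MRC1 under 1 CPM in every group. Most of the sum was LYZ, the lysozyme gene, in the treated groups, at a mean of 376 CPM with MI-503 and 1641 CPM (599 to 2513 CPM) with the combination, against 95.2 CPM in DMSO. Of 8 tested, 8 were higher with MI-503 and 7 with the combination than in DMSO, where 22% and 31.7% of all tested genes were higher. With the combination against MI-503, 5 were higher, 1 was lower (FCGR1A, an Fc receptor gene, at 28.6, 36.3 and 25.1 CPM over the 3 groups) and 2 were not called, where 23.6% of all genes were higher and 23.8% lower. LYZ and FCGR1A were named after their values had been seen. CSF1R, the receptor for a macrophage growth factor, measured 6.48 CPM in DMSO, 34.9 CPM with MI-503 and 55.5 CPM with the combination. ITGAM, a myeloid integrin, measured 22.9, 55.3 and 68.5 CPM, and ITGAX, another, 4.82, 18.2 and 46.7 CPM in that order. The part of this shift in the levels of MYC, MXD1 and the other members was not tested.

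Of the AML and myeloid identity genes, FLT3, a receptor kinase of leukemic blasts, measured 324 CPM in DMSO, 230 CPM with MI-503 and 193 CPM with the combination. MPO, the myeloperoxidase gene, measured 114, 216 and 130 CPM and SPI1, a myeloid master regulator, 224, 263 and 297 CPM. Lymphoid markers summed to 15.5 to 21.0 CPM in DMSO, 39.4 to 41.5 CPM with MI-503 and 40.1 to 49.9 CPM with the combination, of which NKG7 made up most, CD79A averaged under 2 CPM and CD3E, CD3D and MS4A1 were under 1 CPM. The 6 erythroid and megakaryocyte markers, with ITGA2B as the only one tested, each lay under 1 CPM. Epithelial and stromal markers summed to 85.5 to 101 CPM, 142 to 148 CPM and 161 to 208 CPM, with the rise carried by PECAM1, which leukocytes also express, while KRT18 and KRT8 measured 32.9 and 7.21 CPM in DMSO and EPCAM, COL1A1 and COL1A2 were under 1 CPM.

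The genes most like MYC were named from the Pearson correlation of log2 CPM over the 11 libraries, among 10040 genes that averaged 5 CPM or more. They were NASP, a histone chaperone gene (r = 0.996), SSRP1, a subunit of a nucleosome-handling complex (r = 0.996), SNRPB, a splicing factor gene (r = 0.996), HNRNPK (r = 0.996) and PAICS, an enzyme of purine synthesis (r = 0.995). For MXD1 they included LOC105371058 (r = 0.996), MAN2B1, a lysosomal mannosidase gene (r = 0.996), ZNF189 (r = 0.993) and CRTAP (r = 0.993). These values describe libraries that share 3 treatment groups, so any gene that steps the same way over the groups scores high, and r was at least 0.95 for 928 genes with MYC and 361 genes with MXD1.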

How the data were processed

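RNA of MOLM-13 cells in 11 libraries was measured. The authors deposited raw counts of fragments per gene and exon lengths. Per the file headers these came from featureCounts 2.0.1 on paired reads over exons of the hg38 RefSeq annotation, without strand. Fragments mapping to several places or overlapping several genes were left out, which lowers genes with copies or shared exons, and alignments had been filtered by an unstated rule. The submitters' processing notes also name Trimmomatic 0.39, STAR 2.7.10a and DESeq2. Deposited tables of the authors' differential expression (log2 fold changes and p-values) were not used. The joined and single tables differed in 0 cells.

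Counts were analyzed with edgeR 4.0.16 in R 4.3.3 (limma 3.58.1 and DESeq2 1.42.0 as alternatives) and with Python 3.11.15. Genes passing filterByExpr (minimum count 10) entered 1 quasi-likelihood fit over 3 groups with TMM factors (0.956 to 1.056), two-sided, with Benjamini-Hochberg adjustment over 14683 genes. The biological coefficient of variation was 6.14%, with 8 residual degrees of freedom. Log2 CPM used a prior count of 0.5. Alternatives were other scalings, filters, tools, a replicate block and leaving out each library. Same-numbered replicates did not deviate together throughout (r from -0.10 to 0.14), so numbers were not taken as pairs. No pair of replicates agreed within sampling noise. The scripts were tested on simulated data. Promoter windows on chromosome 8 were not searched.

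Named genes were all members, MYCL, MLXIP and MLXIPL, the 3 tested genes of each other list with the smallest p over the 3 groups, and the 5 genes most like MYC and MXD1. Members and lists were chosen with earlier results of these data known. Results of a few genes that these rules name are not reported here.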

Additional observations from a re-analysis of the deposited data

Results flagged for a closer look

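The 18 groups of 4 libraries (9 members in DMSO and in MI-503) were searched for a library far from its group, where chance alone marks about 1 in 20. MXD1 in DMSO replicate 2 measured 23.8 CPM, while the other DMSO libraries lay between 19.4 and 19.9 CPM. MXI1 in MI-503 replicate 4 measured 89.0 CPM, below the 93.4 to 94.1 CPM of the other MI-503 libraries. DMSO replicate 2 was also the highest of its group for MXD4, MXI1 and MGA and the lowest for MYC, MXD3 and MLX. The calls of MXD1 in all 3 comparisons, and of MXI1 for MI-503 against DMSO, held without these libraries.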

How the results depend on the processing

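Over 27 combinations of member and comparison and up to 19 alternatives, 472 of 513 values kept direction and side of the threshold, 9 lost a call, 19 gained one and 13 changed sign, and 15 combinations kept both under every alternative. With a replicate block, 4 members (MYC, MLX, MNT and MGA) in place of 2 were called lower with MI-503 than in DMSO. The block also ended the call of MXI1 and made one for MXD3 for the combination against DMSO, and changed no other member's call. The sign changes were all in differences without a call. For MAX with MI-503 against DMSO the value became 0.026 with upper-quartile factors, 0.014 with a stricter filter and 0.010 with only the 2 groups compared, and ran from -0.066 to 0.0075 with 1 library left out. For MAX with the combination it became 0.026 against DMSO with upper-quartile factors and, against MI-503, 0.0030 with limma-voom and -0.089 to 0.024 with 1 library left out. For MNT with the combination, leaving out 1 library gave -0.15 to 0.024 against DMSO and -0.050 to 0.11 against MI-503. Alternatives for the other lists and their genes were chosen after seeing the data. With 1 library left out, PVT1 ran from -0.028 to 0.11 for the combination against DMSO, ACACA from -0.15 to 0.023 for MI-503 against DMSO, and SYCP3 from -0.14 to 0.065 for the combination against MI-503. SYCP3 in that comparison was 0.0042 with upper-quartile factors, 0.0024 with no filter and 0.0071 with limma-voom. The MYC share of MAX partner transcripts was 64.6%, 56.2% and 47.0% in DMSO, MI-503 and the combination when not divided by length, and 73.8%, 64.1% and 53.4% with MGA left out. Upper-quartile factors moved the part of all calls that was higher with MI-503 from 42.9% to 54.2%. The cause of these changes was not tested. At this depth MYCN and MLXIPL had too few counts to be tested.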
